A study of Mus musculus with 21 samples.

Results

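The comparison described here set mouse embryonic stem cells with a knockout of Trim71 against the untransfected parental cells, labelled W, by RNA-seq. It used 6 of the 21 libraries of the series, all from Experiment 1, with 3 labelled as biological replicates in each group. The parental line is of the 129S6/SvEvTac strain. It contains a reporter named GFP_5xT71BS, a green fluorescent protein gene with binding sites for TRIM71, and a stably transfected FLAG-Cas9::T2A::Blasticidin construct, which both groups share. All cells grew on gelatin in medium with fetal bovine serum and LIF, a cytokine that maintains stem cell self-renewal. The labels do not say how many knockout clones were used or which part of the gene was edited, and nothing in them says whether the replicates were separate clones or cultures, so p-values measure the spread between these libraries.

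TRIM71 (also called LIN41) is an RNA-binding protein of the TRIM-NHL family that represses translation and promotes decay of mRNAs, many of which carry a short hairpin in their 3' untranslated region. It is abundant in pluripotent cells and early embryos and is itself repressed by the let-7 microRNA as cells differentiate. Cultures of embryonic stem cells in serum and LIF are mixed: most cells resemble the naive epiblast of the blastocyst, some drift towards the formative epiblast that follows implantation, and a minority transiently express genes of the 2-cell embryo or of the primitive endoderm, the extra-embryonic layer that lines the blastocyst cavity.

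The W libraries held between 47177610 and 49133585 counts and the Trim71KO libraries between 35751174 and 49223801. Trim71 itself measured 602, 602 and 618 CPM in W and 412, 416 and 459 CPM in Trim71KO (log2 fold change −0.50, SE 0.047, adjusted p = 1.55e-06), where CPM is the count scaled to a TMM-adjusted library size of 1000000 and the adjusted p comes from edgeR's quasi-likelihood test with Benjamini-Hochberg adjustment over all 21210 genes tested. The groups did not overlap, and RNA of the gene was still read in every knockout library. Since the edited part is not named, this level does not check the knockout label. Markers of embryonic stem cells were read in all 6 libraries: the summed level of the core pluripotency factors was 5201, 5312 and 5446 CPM in W and 4967, 4883 and 5239 CPM in Trim71KO. Replicates differed by more than counting noise, and W replicate 1 and Trim71KO replicate 3 stood furthest from the others of their group, with a chi-square per degree of freedom of up to 17.6 and 29.6 against 3.86 and 4.19 for the closest pair of each group. At an adjusted p under 0.05, 32.6% of the genes tested were called (6906 genes), 16.9% higher and 15.6% lower. Most calls were small: in 58.9% of them the log2 fold change lay between −0.5 and 0.5, and 5.22% of all genes were called with a change of at least 1 in size on that scale. A gene list is therefore read below against these shares and against the median log2 fold change of all genes, −0.00074. Among protein-coding genes alone the shares were larger, at 21.8% higher and 19.7% lower, so a list near those shares does not stand out. CPM did not overlap between W and Trim71KO in 44.3% of all genes tested (9401), and in 6682 of the 6906 called genes. A lack of overlap therefore adds little to a call. Values with ± are means and SD over 3 libraries, and the number in parentheses after a gene is its log2 fold change.

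Naive pluripotency factors, among them transcription factors that hold the blastocyst-like state, were higher in the knockout cells. Of 16 tested, 13 were called higher and 1 lower, with a median log2 fold change of 0.57, and the same number was called higher when any 1 library was left out. Their summed level was 3518, 3585 and 3621 CPM in W and 5194, 5231 and 5352 CPM in Trim71KO. Nanog, a homeobox factor of the pluripotency network, read 342, 343 and 333 CPM in W and 544, 571 and 524 CPM in Trim71KO (log2 fold change 0.69, SE 0.046, adjusted p = 5.78e-08). Esrrb, an orphan nuclear receptor and partner of Nanog, read 376, 419 and 421 CPM in W and 598, 599 and 621 CPM in Trim71KO (log2 fold change 0.58, SE 0.055, adjusted p = 1.75e-06). Every Trim71KO library lay above every W library for both genes. Klf4 (0.74), Klf5 (0.59), Tfcp2l1 (0.68), Nr5a2 (0.73) and Zfp42 (0.58) rose by similar amounts, as did Tet2 (0.85), a dioxygenase that oxidises methylated cytosine. The exceptions were Dppa3 (−1.87), a maternal factor that protects methylation in the zygote and fell, and Klf2 (−0.35, adjusted p = 0.292) and Nr0b1 (0.25, adjusted p = 0.105). Dppa3 was read at a low level, with a mean log2 CPM under 0, and no naive factor was called lower with a minimum of CPM over 1. Klf2 was called lower without Trim71KO replicate 3 (adjusted p = 0.0359), and Nr0b1 was called higher by DESeq2 (adjusted p = 0.0489). In contrast, the core factors Pou5f1 (−0.025, adjusted p = 0.792) and Sox2 (0.10, adjusted p = 0.442) were not called. Within the 14 core pluripotency genes, 2 were called higher and 6 lower. Tdh (0.58), the threonine dehydrogenase on which mouse stem cells rely, rose, and Lin28a (−0.58), which blocks maturation of let-7, Dppa2 (−0.56) and Sall4 (−0.36) fell.

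Genes of the formative and primed epiblast moved the other way. Of 16 tested, 9 were called lower and 1 higher, with a median of −0.43. Pou3f1, which encodes the POU factor OCT6, read 8.65, 10.8 and 12.2 CPM in W and 3.77, 2.72 and 5.14 CPM in Trim71KO (log2 fold change −1.42, SE 0.24, adjusted p = 0.00170). Lef1, a nuclear partner of beta-catenin, read 5.00, 5.38 and 5.12 CPM in W and 0.477, 0.334 and 0.520 CPM in Trim71KO (log2 fold change −3.51, SE 0.17, adjusted p = 2.90e-09). For both genes the highest Trim71KO library stayed below the lowest W library. Otx2 (−0.34), which opens formative enhancers, Pim2 (−0.90) and Cldn6 (−0.50) also fell. Sall2 (0.26) was the member called higher, but not without Trim71KO replicate 2 or without any 1 of the W replicates (adjusted p from 0.0514 to 0.092), and Fgf5 (−0.37, adjusted p = 0.707), Zic2 (−0.12, adjusted p = 0.638) and Foxd3 (−0.019, adjusted p = 0.970) were not called. The de novo DNA methyltransferases belonged to the genes that fell. Dnmt3a read 256, 267 and 269 CPM in W and 107, 108 and 113 CPM in Trim71KO (log2 fold change −1.27, SE 0.045, adjusted p = 1.77e-10), and Dnmt3l, its catalytically inactive cofactor, read 321, 335 and 329 CPM in W and 114, 119.6 and 114 CPM in Trim71KO (log2 fold change −1.50, SE 0.045, adjusted p = 2.39e-11). Neither gene overlapped between groups, and Dnmt3b (−0.53) was called as well. The maintenance enzyme Dnmt1 (−0.036, adjusted p = 0.526) and its partner Uhrf1 (0.055, adjusted p = 0.381) were not called. Over the whole list of 17 genes of DNA methylation and demethylation, 5 were called in each direction.

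RNA of the 2-cell-like state, a rare and transient condition marked by the Zscan4 cluster, was much lower in the knockout cells. The 18 listed genes summed to between 26.0 and 29.3 CPM in the W libraries and between 2.86 and 3.70 CPM in the Trim71KO libraries. Of the 15 tested, 13 were called lower and none higher, with a median of −3.49. Zscan4c read 4.57, 3.30 and 3.83 CPM in W and 0.126, 0.111 and 0.166 CPM in Trim71KO (log2 fold change −4.80, SE 0.29, adjusted p = 1.79e-08) and Zscan4d read 3.16, 3.75 and 2.85 CPM in W and 0.151, 0.361 and 0.312 CPM in Trim71KO (log2 fold change −3.55, SE 0.25, adjusted p = 7.62e-08). No Trim71KO library reached a W library for either gene. The genes Tcstv3 (−2.36), Eif1ad7 (−2.40) and Usp17le (−3.73) fell too, Zfp352 (−0.86, adjusted p = 0.0949) was not called, and 3 members fell below the minimum count. The copies of these families are nearly identical in sequence, so how reads were divided among them is uncertain and the sum is the firmer value. In bulk RNA, fewer cells of a type and less RNA per cell cannot be told apart.

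Genes of the primitive endoderm fell across most of their list. Of 24 tested, 19 were called lower and none higher, with a median of −1.38, and 16 of 21 were lower once genes of chromosome 8 were set aside. Between 17 and 19 were lower when 1 library was left out. Gata6, which specifies the lineage, read 6.36, 6.92 and 6.63 CPM in W and 0.477, 0.306 and 0.250 CPM in Trim71KO (log2 fold change −4.28, SE 0.19, adjusted p = 1.05e-09). Sox17, a factor of all endoderm, read 3.33, 3.92 and 4.62 CPM in W and 0.251, 0.222 and 0.250 CPM in Trim71KO (log2 fold change −4.01, SE 0.24, adjusted p = 2.19e-08). Gata4 read 5.97, 7.17 and 6.57 CPM in W and 1.16, 0.889 and 0.936 CPM in Trim71KO (log2 fold change −2.72, SE 0.15, adjusted p = 8.85e-09). For these 3 transcription factors the groups were far apart. Genes for surface proteins of this layer fell in the same libraries: the endocytic receptor Lrp2 read 70.5, 57.1 and 60.1 CPM in W and 18.1, 17.5 and 13.3 CPM in Trim71KO (log2 fold change −1.94, SE 0.13, adjusted p = 1.75e-06), its partners Cubn (−3.75) and Amn (−1.54) fell, as did the adaptor Dab2 (−2.37) and the growth factor receptor Pdgfra (−3.25). Hnf4a (0.049, adjusted p = 0.915), Sox7 (−0.16, adjusted p = 0.577) and Apoe (−0.090, adjusted p = 0.756) were not called, and Afp, Ttr and Apoa1 had no row in the table.

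The basement membrane that primitive endoderm secretes was lower in part. Collagen IV, laminin and related genes gave 12 lower and 5 higher of 23 tested. Col4a1 read 150.5, 158 and 166 CPM in W and 55.7, 52.3 and 62.7 CPM in Trim71KO (log2 fold change −1.47, SE 0.074, adjusted p = 4.26e-09), and Col4a2 (−1.77), which shares its promoter region, fell alongside. Both lie on chromosome 8, whose genes were higher as a group. Lamb1 (−0.94), Lama1 (−0.52), Sparc (−0.70) and Col18a1 (−0.67) fell, whereas Nid1 (0.43), encoding the linker nidogen, and the integrins Itgb1 (0.43) and Itgav (0.56), which bind matrix at the cell surface, rose. The count of higher members was 3 rather than 5 without Trim71KO replicate 1, without W replicate 2 or without W replicate 3.

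**Figure D1:**
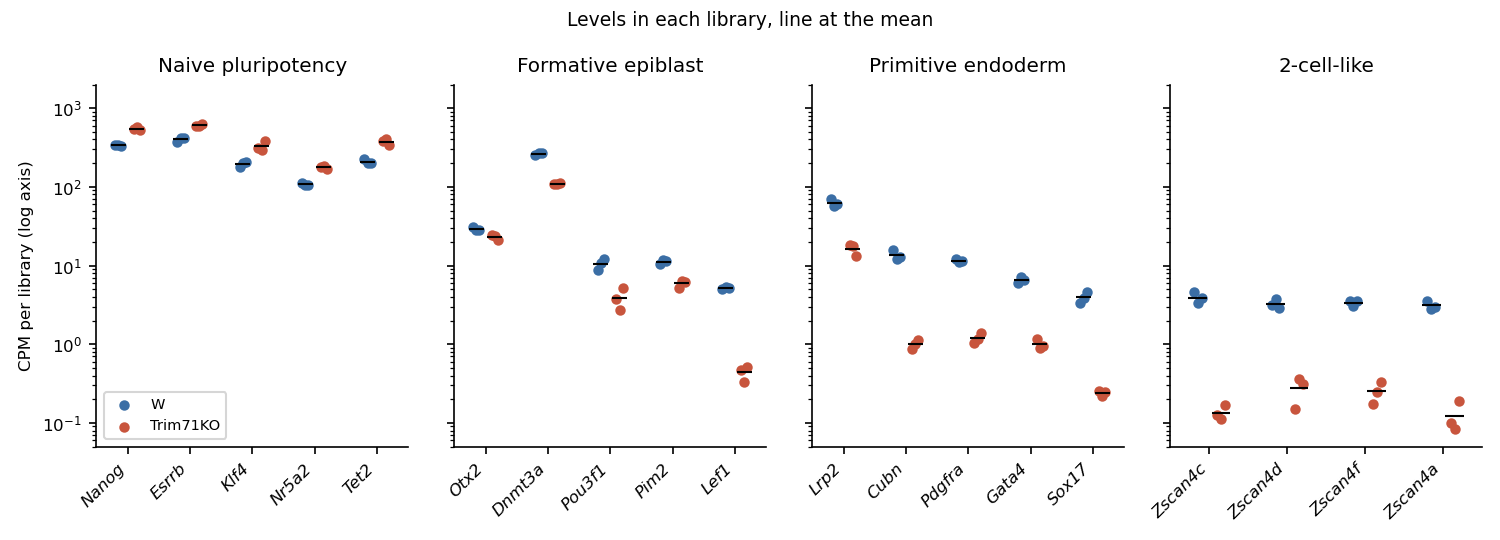
CPM on a log axis in each of the 3 W libraries (blue) and 3 Trim71KO libraries (red), with a line at the mean, for genes of 4 lists. Each naive gene drawn lies higher in Trim71KO, and each formative, primitive endoderm and 2-cell-like gene drawn lies lower, with no overlap between groups. The genes drawn were picked after their values were seen, so their common direction does not describe the whole lists. Members that went otherwise, such as Dppa3 and Sall2, and members not called are not drawn.

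Other lineages that a stem cell culture can hold gave calls in both directions. Trophoblast genes gave 6 lower and 2 higher of 13 (1 higher without Trim71KO replicate 1 or W replicate 2) and summed to between 76.7 and 85.02 CPM in W and between 62.01 and 69.9 CPM in Trim71KO: Cdx2 (−2.27), the trophectoderm determinant, averaged 0.669 ± 0.189 to 0.134 ± 0.0441 CPM from W to Trim71KO, and Ascl2 (−1.48) and Krt18 (−1.40) fell while Tead4 (0.45) rose. Primitive streak and mesoderm genes gave 5 lower and 1 higher of 13, with 3 lower without Trim71KO replicate 1, Trim71KO replicate 2 or W replicate 3, 1 lower with a minimum of CPM over 1, and none higher without Trim71KO replicate 1 or W replicate 2. The list summed to between 12.5 and 14.1 CPM in W and between 8.87 and 11.7 CPM in Trim71KO. The mean of the T-box factor T went from 0.398 ± 0.0939 to 0.107 ± 0.0285 CPM (−1.89), Kdr (−0.99) fell and Mixl1 (−0.0085, adjusted p = 0.999) was not called. Endothelial and blood genes gave 4 higher and 4 lower of 11, and the 4 higher became 2 without Trim71KO replicate 3 or W replicate 1 and 1 without W replicate 2. Outside chromosome 8, 2 of 9 were higher and 4 lower, and the median was −0.53 against −0.069 for the whole list. That list summed to between 17.2 and 17.9 CPM in W and between 15.2 and 17.2 CPM in Trim71KO, and the blood marker Ptprc had no row in the table. Fibroblast genes gave 4 lower and 2 higher of 8, but leaving out any 1 library took the lower count to 1 or 2, DESeq2, TMM without chromosome 8, a replicate block or a fit of these groups alone took it to 2, and 1 was higher without W replicate 2. The fibroblast list summed to between 24.99 and 27.4 CPM in W and between 26.5 and 28.1 CPM in Trim71KO. Of 6 Hox genes tested, 1 was lower, Hoxb13 (−2.29), at a low level with a mean log2 CPM under 0. Whether the share of such cells in the cultures bears on any other gene list was not tested.

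Neural genes gave calls in both directions. The neuronal list gave 10 higher and 4 lower of 20, with a median of 0.30, and 9 higher of 19 without chromosome 8. Map2, a dendritic microtubule-associated protein gene, read 2.67, 3.04 and 3.29 CPM in W and 5.90, 6.23 and 4.39 CPM in Trim71KO (log2 fold change 0.87, SE 0.14, adjusted p = 2.15e-04). Kif5a (0.75), an axonal kinesin, and Grin1 (1.42), a glutamate receptor subunit, rose as well. The 4 lower were 3 intermediate filament genes and Gap43 (−0.23), a growth cone protein gene: Ina, encoding alpha-internexin, read 19.9, 20.3 and 21.8 CPM in W and 7.46, 6.504 and 7.53 CPM in Trim71KO (log2 fold change −1.52, SE 0.082, adjusted p = 7.12e-09), and Nefm (−1.10) and Nefl (−0.41) fell. Gap43 lost its call without Trim71KO replicate 1, Trim71KO replicate 2, W replicate 2 or W replicate 3 (adjusted p from 0.0741 to 0.205) and under 5 other alternatives, DESeq2 among them (0.0513). Neural progenitor genes gave 4 higher and 3 lower of 13. Ncam1 (1.23), an adhesion molecule, Sox11 (0.68) and Sox21 (0.83) rose, Sox1 (0.62) rose and lies on chromosome 8, and Pax6 (−1.51), Neurod1 (−0.99) and the N-cadherin gene Cdh2 (−0.38) fell, Cdh2 without a call when Trim71KO replicate 1, Trim71KO replicate 2 or W replicate 3 was left out (adjusted p from 0.0787 to 0.0891). Of the 25 progenitor genes listed, 9 had no row in the table, among them Olig2 and Hes5. Germline and piRNA genes gave 7 higher and 9 lower of 25. Scml2, a Polycomb-like gene of the X chromosome, read 4.92, 4.11 and 4.03 CPM in W and 21.4, 22.3 and 19.14 CPM in Trim71KO (log2 fold change 2.26, SE 0.10, adjusted p = 1.18e-09), and Dazl (0.83) and Kit (0.64) rose, while Tdrd12, a piRNA pathway protein gene, read 25.7, 23.9 and 23.9 CPM in W and 8.71, 8.45 and 8.22 CPM in Trim71KO (log2 fold change −1.54, SE 0.070, adjusted p = 1.44e-09) and Stra8 (−1.66) fell.

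**Figure D2:**
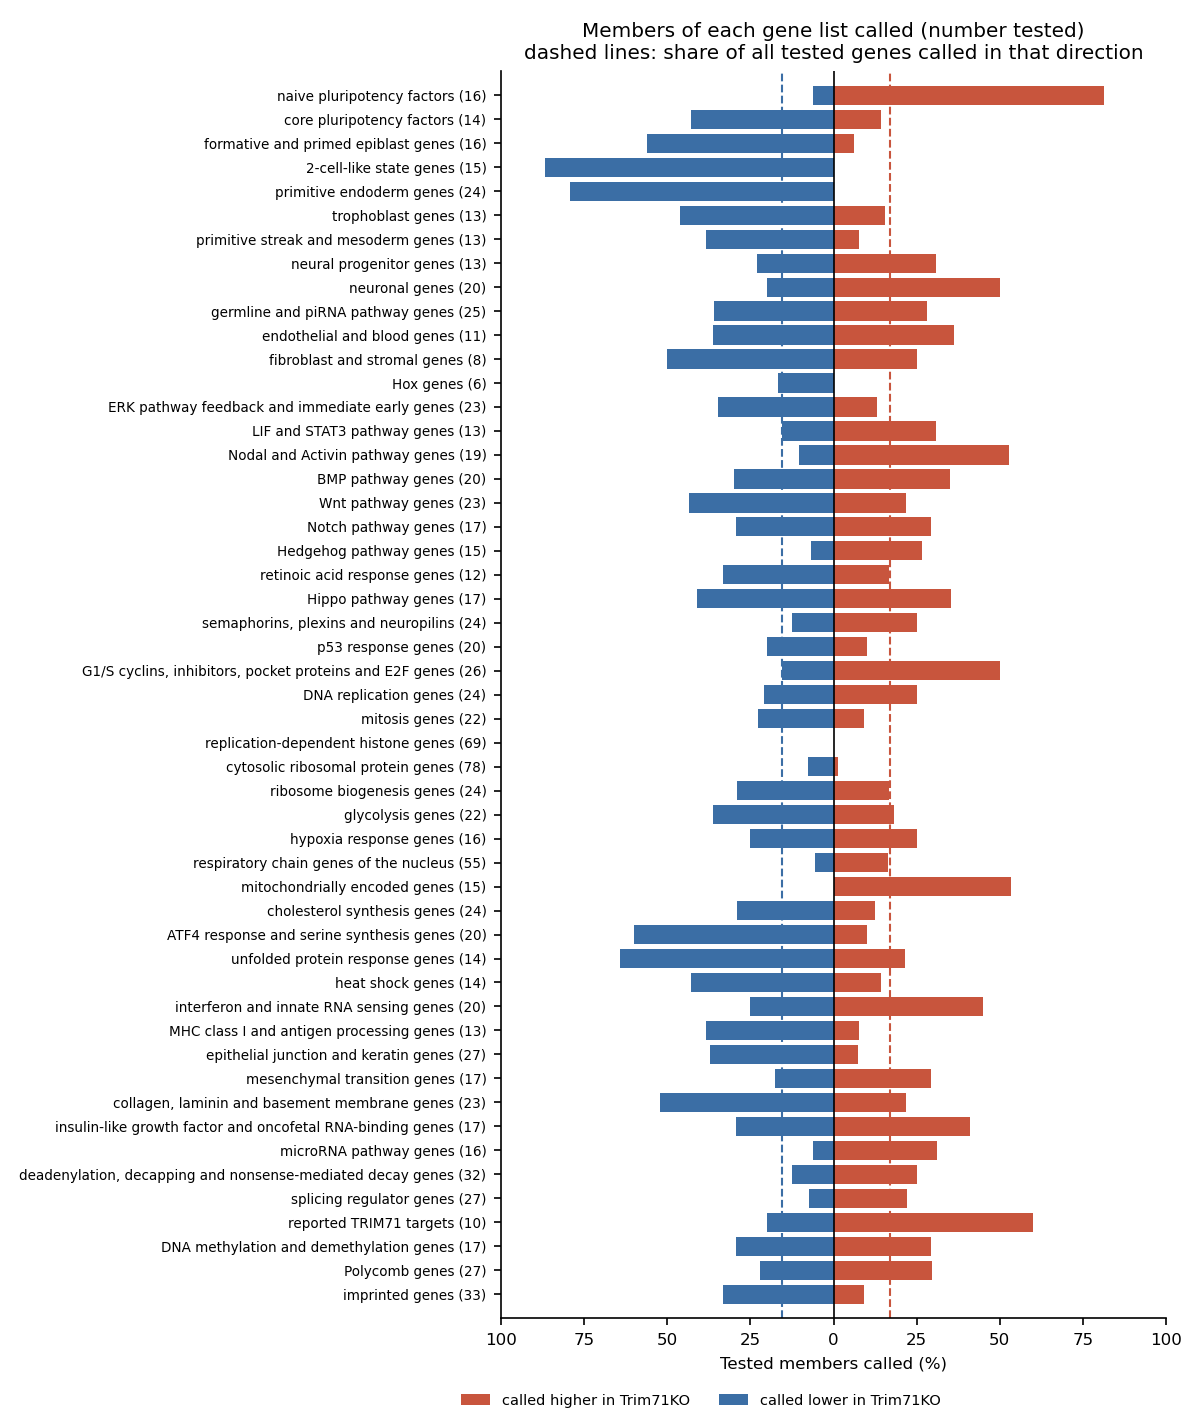
Percent of tested members of each list called higher (red, to the right) and lower (blue, to the left), with the number tested in parentheses and dashed lines at the 16.9% and 15.6% of all genes called in each direction. Among protein-coding genes these shares are 21.8% and 19.7%. Naive pluripotency factors reach furthest to the right, with 13 of 16, and 2-cell-like and primitive endoderm genes furthest to the left, with 13 of 15 and 19 of 24.

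Signalling pathways showed changes in ligands and receptors of different sign. In the Nodal and Activin pathway, which sustains the epiblast, 10 of 19 genes were called higher and 2 lower. Nodal itself read 45.01, 50.5 and 50.3 CPM in W and 25.2, 23.6 and 25.4 CPM in Trim71KO (log2 fold change −0.97, SE 0.064, adjusted p = 4.41e-08). Inhbb, which encodes the activin B subunit, read 197, 223 and 240.1 CPM in W and 385, 364 and 476 CPM in Trim71KO (log2 fold change 0.89, SE 0.11, adjusted p = 2.09e-04). Neither gene overlapped between groups. The type I receptor Acvr1b (0.57), the type II receptor Acvr2a (0.45), the effector Smad3 (0.73) and the inhibitor Smad7 (0.50) rose, Skil (−0.47), a repressor of SMAD activity, fell, and of the paired feedback antagonists Lefty2 (0.98) rose while Lefty1 (−0.15, adjusted p = 0.549) did not pass, although reads of these close copies may be shared. BMP genes gave 7 higher and 6 lower of 20: the ligand Bmp4 (0.62) and its target Id3 (0.41) rose, Id1 (−0.38) fell, and the inhibitory Smad6 read 5.99, 8.34 and 8.09 CPM in W and 1.73, 1.70 and 2.95 CPM in Trim71KO (log2 fold change −1.78, SE 0.23, adjusted p = 2.16e-04).

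Wnt pathway genes gave 10 lower and 5 higher of 23, with a median of −0.23. Feedback regulators, which beta-catenin itself induces, went both ways. Axin2, an inhibitor inside the cell, read 14.1, 16.6 and 16.1 CPM in W and 8.89, 7.23 and 9.15 CPM in Trim71KO (log2 fold change −0.89, SE 0.099, adjusted p = 9.36e-06), and Dkk1 (−3.67) and Rnf43 (−2.24), which restrain the receptors, fell. Dkk1 and Rnf43 were read at low levels, with a mean log2 CPM under 0. With a minimum of CPM over 1, 8 Wnt pathway genes were lower. In contrast Znrf3 (0.37), a relative of Rnf43, and Notum (0.31), which inactivates secreted ligands, rose, and the target Sp5 (−0.88, adjusted p = 0.0561) was not called. Notum was not called without Trim71KO replicate 1, Trim71KO replicate 3, W replicate 1 or W replicate 2 (adjusted p from 0.0644 to 0.144), and Sp5 was called lower without Trim71KO replicate 3 or W replicate 1 (adjusted p = 0.00378 and 0.0173) and by DESeq2 (0.0393). Lef1 is described above. The ligand Wnt7b (−2.38) and the ligand-processing enzyme Porcn (−0.52) fell. Sfrp1, a secreted protein that binds Wnt ligands, read 73.7, 73.7 and 74.8 CPM in W and 212, 212 and 225 CPM in Trim71KO (log2 fold change 1.55, SE 0.046, adjusted p = 2.39e-11) and was far above the shift of its chromosome. Ctnnb1 (0.20), the beta-catenin gene, rose.

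The Hippo pathway, whose kinases keep the coactivators YAP and TAZ out of the nucleus, gave 6 higher and 7 lower of 17. Its kinase genes went both ways: Lats1 (0.35) rose and Lats2 (−0.26) fell, the latter not called without Trim71KO replicate 1, W replicate 2 or W replicate 3 (adjusted p from 0.0573 to 0.0872). The scaffold gene Sav1 (0.44) rose, as did Wwtr1 (0.53), which encodes TAZ, and the angiomotin-like Amotl1 (−0.39) and Amotl2 (−0.66) fell. Widely used targets of YAP fell: Ccn2, a matricellular protein gene, read 11.7, 14.3 and 13.5 CPM in W and 3.84, 4.67 and 4.60 CPM in Trim71KO (log2 fold change −1.59, SE 0.11, adjusted p = 5.32e-08), and Ccn1 read 9.09, 10.3 and 11.6 CPM in W and 4.12, 4.197 and 4.62 CPM in Trim71KO (log2 fold change −1.26, SE 0.11, adjusted p = 8.19e-07). Ankrd1, another such target, singled out after its values were seen, had 11, 19 and 21 counts in W and none in any Trim71KO library, at least 14.8-fold lower against a floor of 3 counts over the group. Yap1 (−0.063, adjusted p = 0.346) was not called.

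ERK feedback and immediate early genes gave 8 lower and 3 higher of 23. The immediate early gene Egr1 fell (−2.56), and Phlda1 (−1.08), Dusp4 (−0.85) and Myc (−0.57) fell too, while the feedback regulators Spry4 (0.28) and Dusp6 (0.20) rose. LIF pathway genes gave 4 higher and 2 lower of 13. The receptor Lifr (0.36), the kinase Jak1 (0.38) and the transcription factors Stat3 (0.35) and Klf4 (0.74) rose. The shared receptor chain Il6st (−0.34) and the STAT3 target Pim1 (−0.86) fell. Notch genes gave 5 in each direction of 17. The effector Hes1 (0.64) rose and the ligand Dll1 (−1.61) and the glycosyltransferase Lfng (−1.47) fell; the 5 higher became 2 without Trim71KO replicate 3 and 3 without W replicate 1 or W replicate 2. Hedgehog genes gave 4 higher of 15, with Gli1 (0.27) among them and Ptch1 (0.078, adjusted p = 0.294) not called. Retinoic acid response genes gave 2 higher and 4 lower of 12, with the reductase Dhrs3 (0.71) higher and the receptor Rarg (−0.39) lower; 1 was higher without Trim71KO replicate 1, W replicate 1 or W replicate 2. Of 24 semaphorins, plexins and neuropilins, guidance molecules and their receptors, 6 were higher and 3 lower (5 lower without W replicate 1 or with the gene length trend removed), with Plxnb2 at 51.2, 57.5 and 56.1 CPM in W and 139.5, 139.8 and 142 CPM in Trim71KO (log2 fold change 1.35, SE 0.053, adjusted p = 4.33e-10), Sema5b (1.30) higher and Sema3e (−1.25) lower.

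Genes of the G1 to S transition included many that rose. Of 26 cyclins, inhibitors, pocket proteins and E2F genes, 13 were called higher and 4 lower, with a median of 0.21. The pocket proteins restrain E2F factors: Rbl1 read 21.4, 18.6 and 17.9 CPM in W and 40.1, 41.9 and 38.03 CPM in Trim71KO (log2 fold change 1.05, SE 0.071, adjusted p = 6.12e-08), and Rbl2 (0.58), on chromosome 8, rose. E2f2 (0.71) and E2f3 (0.44) rose, as did the inhibitor Cdkn1b (0.34). The D and E cyclins were divided: Ccnd2 (0.54) and Ccne2 (0.56) rose, and Ccnd1 averaged 221 ± 6.62 to 188 ± 9.10 CPM from W to Trim71KO (−0.23) and was called lower, as was its kinase Cdk4 (−0.14), though Cdk4 was not called without Trim71KO replicate 1, Trim71KO replicate 2, W replicate 2 or W replicate 3 (adjusted p from 0.0978 to 0.145) or with every chromosome's median as an offset (0.13). The other E cyclin Ccne1 read 189, 199 and 195 CPM in W and 98.8, 100.6 and 100.4 CPM in Trim71KO (log2 fold change −0.96, SE 0.043, adjusted p = 1.26e-09), and the imprinted inhibitor Cdkn1c read 40.6, 48.2 and 48.7 CPM in W and 19.8, 18.1 and 27.8 CPM in Trim71KO (log2 fold change −1.06, SE 0.16, adjusted p = 7.86e-04). Both fell without overlap. DNA replication genes gave 6 higher and 5 lower of 24, but 4 higher and 5 lower of 21 outside chromosome 8. Mitosis genes gave 2 higher and 5 lower of 22, and p53 response genes 2 higher and 4 lower of 20. Cdkn1a (0.33, adjusted p = 0.0577) and Mdm2 (0.027, adjusted p = 0.679) were not called, although Cdkn1a was called higher without W replicate 3 (adjusted p = 0.0234). Differences between these lists were not tested. Without Trim71KO replicate 1, Trim71KO replicate 2, W replicate 2 or W replicate 3, mitosis genes gave 3 lower and 1 higher. The p53 count of 4 lower was 2 without Trim71KO replicate 1 or W replicate 3, and its 2 higher became 1 without Trim71KO replicate 2 or W replicate 2.

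Stress-response genes of the endoplasmic reticulum and of amino acid shortage were lower in small steps. The unfolded protein response, in which ATF6, XBP1 and ATF4 raise chaperones when proteins misfold, gave 9 lower and 3 higher of 14 genes, with a median of −0.24. Hspa5, the chaperone BiP, read 635, 626 and 626 CPM in W and 532, 517 and 537 CPM in Trim71KO (log2 fold change −0.25, SE 0.045, adjusted p = 5.67e-04). Manf, a secreted factor of this response, read 105, 110.2 and 108 CPM in W and 70.5, 66.1 and 74.3 CPM in Trim71KO (log2 fold change −0.62, SE 0.059, adjusted p = 1.88e-06). Xbp1 (−0.33), Pdia6 (−0.37) and Creld2 (−0.36) fell as well, and Edem1 (0.33) and Herpud1 (0.36), which act in degradation of misfolded proteins, rose. Herpud1 lies on chromosome 8 and was not called against the shift of that chromosome (adjusted p = 0.0814). The ATF4 response list gave 12 lower and 2 higher of 20, with a median of −0.24 and 9 to 12 lower when 1 library was left out (1 higher without W replicate 1). Atf4 read 239, 247 and 256 CPM in W and 158, 154 and 171 CPM in Trim71KO (log2 fold change −0.62, SE 0.053, adjusted p = 6.65e-07), and Chac1, a glutathione-degrading enzyme gene, read 14.7, 18.6 and 19.96 CPM in W and 9.94, 9.67 and 11.3 CPM in Trim71KO (log2 fold change −0.78, SE 0.12, adjusted p = 1.43e-04). No library of one group reached the other for these 2 genes. Trib3 (−0.62), Sesn2 (−0.39) and Psph (−0.24) fell, Slc7a5 (0.36), of a transporter for large amino acids, rose, and Asns (−0.085, adjusted p = 0.148) and Ddit3 (0.12, adjusted p = 0.457) were not called.

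The promoters of both lists, where most of the called members were lower, were searched on both strands for the response elements of these pathways, in the window from 250 bases before to 50 after the RefSeq start (GRCm38.p6). The ER stress response element, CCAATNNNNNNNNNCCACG, was present in 6 of the 13 unfolded protein response genes with a promoter sequence and in 39 of 32851 promoters (0.119%). Of those 6, Hspa5, Pdia6, Creld2 and Hsp90b1 (−0.16) fell, and Calr (0.047, adjusted p = 0.442) and Dnajc3 (−0.041, adjusted p = 0.629) were not called. Calr lies on chromosome 8 and was called lower against the shift of that chromosome (−0.15, adjusted p = 0.017). Hsp90b1 kept its call without Trim71KO replicate 2 but not without any other library (adjusted p from 0.0542 to 0.151), nor with DESeq2, a minimum of CPM over 1, TMM without chromosome 8, every chromosome's median as an offset or the gene length trend removed (adjusted p from 0.0509 to 0.143). Of the 7 genes with no match in this window, 4 fell (Xbp1, Pdia4 (−0.23), Dnajb9 (−0.36) and Sdf2l1 (−0.36)) and 3 rose (Edem1, Herpud1 and Sel1l (0.20)). Among these, Sdf2l1 lost its call without Trim71KO replicate 1, Trim71KO replicate 2, W replicate 2 or W replicate 3 (adjusted p from 0.0793 to 0.0934), Dnajb9 without Trim71KO replicate 2 or W replicate 1 (0.0552 and 0.0681), and Sel1l with every chromosome's median as an offset or the gene length trend removed (0.0683 and 0.151). The CEBP-ATF response element, TGATGNAA, was present in 7 of 18 ATF4 list genes and in 1304 of all promoters (3.97%), and 5 of the 7 fell: Chac1, Trib3, Nupr1 (−0.35), Pck2 (−0.29) and Vldlr (−0.56). Nupr1 lost its call without W replicate 3 (adjusted p = 0.0592) and Vldlr without any library other than Trim71KO replicate 1 (adjusted p from 0.0528 to 0.149), with DESeq2 (0.0627) and with W and Trim71KO fitted alone (0.0625). Of the 11 list genes with no match, 6 fell and 1 rose, so falls were found with and without the element; whether their shares differ was not tested. Both lists were written from known members of these responses, so their shares with an element are not independent of that choice. A list gene was counted if any of its promoters matched, whereas the share over all promoters counts each promoter. A match describes the sequence and is no evidence of binding. Below are 5 promoters of genes that fell, chosen to show both elements, with the match in capitals and read 5′ to 3′ on the strand of the gene; none of the 5 holds a match to the other element. They lie at chr2:34771840-34772139 (Hspa5, plus strand), chr12:17266339-17266638 (Pdia6, plus), chr15:88819396-88819695 (Creld2, plus), chr2:119350992-119351291 (Chac1, plus) and chr2:152344011-152344310 (Trib3, minus). In Creld2, Chac1 and Trib3 the element reads on the strand opposite to the gene.
Hspa5: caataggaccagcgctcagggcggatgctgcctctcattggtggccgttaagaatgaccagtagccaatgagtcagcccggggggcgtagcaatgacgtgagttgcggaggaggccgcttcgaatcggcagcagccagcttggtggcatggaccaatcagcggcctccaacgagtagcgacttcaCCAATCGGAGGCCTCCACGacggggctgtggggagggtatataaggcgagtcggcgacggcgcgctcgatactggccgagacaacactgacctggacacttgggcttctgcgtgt
Pdia6: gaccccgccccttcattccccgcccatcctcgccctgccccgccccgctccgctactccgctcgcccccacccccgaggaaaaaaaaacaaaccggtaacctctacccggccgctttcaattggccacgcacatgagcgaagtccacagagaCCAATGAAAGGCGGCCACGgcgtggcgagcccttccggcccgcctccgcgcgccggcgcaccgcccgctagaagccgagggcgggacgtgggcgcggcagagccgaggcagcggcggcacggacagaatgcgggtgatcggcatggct
Creld2: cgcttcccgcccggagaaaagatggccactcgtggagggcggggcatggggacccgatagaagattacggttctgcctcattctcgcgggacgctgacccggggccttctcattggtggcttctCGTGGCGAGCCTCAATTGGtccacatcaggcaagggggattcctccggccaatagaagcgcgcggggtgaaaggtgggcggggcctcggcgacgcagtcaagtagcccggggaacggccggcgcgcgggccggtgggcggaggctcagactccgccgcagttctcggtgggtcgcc
Chac1: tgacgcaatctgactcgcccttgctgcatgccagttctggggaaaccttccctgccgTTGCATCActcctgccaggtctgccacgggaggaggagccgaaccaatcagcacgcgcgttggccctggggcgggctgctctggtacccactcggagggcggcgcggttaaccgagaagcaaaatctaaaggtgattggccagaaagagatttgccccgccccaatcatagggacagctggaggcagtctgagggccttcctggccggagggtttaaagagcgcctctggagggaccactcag
Trib3: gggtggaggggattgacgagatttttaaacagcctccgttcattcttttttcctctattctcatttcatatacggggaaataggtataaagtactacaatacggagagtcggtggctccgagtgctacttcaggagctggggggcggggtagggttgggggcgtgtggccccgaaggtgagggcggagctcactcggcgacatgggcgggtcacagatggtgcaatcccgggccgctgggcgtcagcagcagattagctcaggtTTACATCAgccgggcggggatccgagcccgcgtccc

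Cytosolic heat shock genes gave 6 lower and 2 higher of 14, with a median of −0.028. When any 1 library was left out, 4 were lower. The list summed to between 12240 and 12680 CPM in W and between 12640 and 12900 CPM in Trim71KO. Hspa1a, the inducible HSP70, read 13.4, 15.4 and 17.3 CPM in W and 5.70, 4.22 and 6.78 CPM in Trim71KO (log2 fold change −1.45, SE 0.19, adjusted p = 2.82e-04), and its near-identical copy Hspa1b (−1.32) fell, with reads possibly divided between them. Hsp90ab1 (0.12), the constitutive HSP90, rose slightly.

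In metabolism, glycolysis genes gave 8 lower and 4 higher of 22. Slc2a3, the glucose transporter GLUT3, read 1046, 1016 and 1025 CPM in W and 1501, 1512 and 1477 CPM in Trim71KO (log2 fold change 0.54, SE 0.037, adjusted p = 5.96e-08), whereas Ldha (−0.39), Tpi1 (−0.51) and the lactate exporter Slc16a3 (−0.61) fell. Hypoxia response genes gave 4 in each direction of 16, and cholesterol synthesis genes 7 lower and 3 higher of 24. RNA of the mitochondrial genome was higher: of 15 genes, 8 were called higher and none lower, with a median of 0.36 and 7 to 11 higher when 1 library was left out. ATP6, a subunit of ATP synthase, read 512, 507 and 459.7 CPM in W and 698, 708 and 603 CPM in Trim71KO (log2 fold change 0.44, SE 0.068, adjusted p = 2.19e-04), and COX3, a subunit of cytochrome c oxidase, read 1439, 1270 and 1244 CPM in W and 1752, 1838 and 1573 CPM in Trim71KO (log2 fold change 0.39, SE 0.074, adjusted p = 0.00177). The mitochondrial share of counts was 1.65% ± 0.171 in Trim71KO and 1.30% ± 0.0724 in W, with no overlap (exact two-sided permutation p = 0.1, the smallest that 3 against 3 allow). The 55 respiratory chain genes of the nucleus gave 9 higher and 3 lower, with a median of 0.011; the 9 became 4 or 5 without Trim71KO replicate 1, W replicate 2 or W replicate 3, and the 3 became 5 without Trim71KO replicate 3.

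Genes of protein synthesis had medians near 0. Of 78 cytosolic ribosomal protein genes, 6 were called lower and 1 higher, with a median of −0.045, and ribosome biogenesis genes gave 7 lower and 4 higher of 24. The ribosomal count was not stable: 19 were called lower without Trim71KO replicate 3 and 1 without any of Trim71KO replicate 1, Trim71KO replicate 2, W replicate 2 or W replicate 3. With all libraries it was 13 in a fit with the replicate number as a block and 3 with every chromosome's median as an offset. The 1 higher lies on chromosome 8 and was not called against the shift of that chromosome. It was also not called without Trim71KO replicate 1 or W replicate 1. Replication-dependent histone genes, whose mRNAs lack a poly(A) tail and are retained by the total RNA kit, gave no call in edgeR's test among 69, with a median of −0.40. At an unadjusted p under 0.05, 3 of them passed, DESeq2 called 4 lower, a fit with the replicate number as a block called 14 lower, and 20 were lower without Trim71KO replicate 3. Their median ranged from −0.712 to −0.206 when 1 library was left out. Their summed level was 14480, 17910 and 20140 CPM in W and 12080, 9685 and 18910 CPM in Trim71KO, so the groups overlapped, and each spanned more than the difference between their means.

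Innate immune genes moved in both directions. Of 20 interferon and RNA-sensing genes, 9 were higher and 5 lower: Mavs (0.43), the adaptor of RNA sensors, Stat2 (0.51) and Irf9 (0.39) rose, and the antiviral membrane proteins Bst2 (−1.48), Ifitm1 (−1.03) and Ifitm3 (−0.54) fell, as did the RNA sensor Ddx58 (−0.18) (RIG-I) and the transcription factor Irf3 (−0.30). Ddx58 was not called without Trim71KO replicate 1 or W replicate 2 (adjusted p = 0.072 and 0.0757). With a minimum of CPM over 1, 6 were higher. Bst2, on chromosome 8, read 11.7, 13.3 and 13.1 CPM in W and 4.29, 4.72 and 4.68 CPM in Trim71KO (log2 fold change −1.48, SE 0.091, adjusted p = 2.41e-08). MHC class I and antigen processing genes gave 5 lower and 1 higher of 13, with Tap1 (−0.89) and H2-K1 (−0.49) lower and B2m (0.19, adjusted p = 0.199) not called. The 1 higher lies on chromosome 8 and was not called against its shift. Among the fits that left out a library, it stayed called only without W replicate 3.

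Epithelial genes were lower more often than higher, at 10 and 2 of 27, with a median of −0.21. Epcam, an epithelial adhesion molecule, read 82.2, 85.8 and 87.7 CPM in W and 43.5, 37.2 and 45.9 CPM in Trim71KO (log2 fold change −1.01, SE 0.072, adjusted p = 9.87e-08), and Grhl2, a transcription factor of epithelial identity, read 40.9, 39.1 and 40.4 CPM in W and 12.9, 13.7 and 13.2 CPM in Trim71KO (log2 fold change −1.60, SE 0.060, adjusted p = 2.50e-10). Both were lower in every Trim71KO library. Krt18 (−1.40), Cldn3 (−1.29) and the epithelial splicing regulator Esrp1 (−0.93) fell, and the E-cadherin gene Cdh1 (0.23), on chromosome 8, rose by about the shift of that chromosome and was not called against it (adjusted p = 0.669). Genes of the mesenchymal transition gave 5 higher and 3 lower of 17, with 1 lower without Trim71KO replicate 1, Trim71KO replicate 2 or W replicate 3. Outside chromosome 8, 4 of 15 were higher and 3 lower, with a median of 0.039 against 0.146 for the whole list. Fn1, fibronectin, read 448, 384 and 396 CPM in W and 556, 596 and 487 CPM in Trim71KO (log2 fold change 0.42, SE 0.079, adjusted p = 0.00152). Vim (0.40) and Tgfbi (0.53) rose, and the ligand gene Tgfb2 (−0.97) fell.

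Among genes of RNA regulation, 6 of 10 reported TRIM71 targets were called higher and 2 lower (1 lower without Trim71KO replicate 1, W replicate 2 or W replicate 3), and their summed level was 156, 157 and 156 CPM in W and 292, 295 and 289 CPM in Trim71KO. Outside chromosome 8, 4 of 8 targets were higher and 2 lower, with a median of 0.30 against 0.46 for all 10. These targets were reported in earlier work, some of it in embryonic stem cells, so the list is not independent evidence of a direction. Mbnl1, a splicing regulator of differentiated cells, read 13.7, 13.2 and 13.4 CPM in W and 47.4, 45.9 and 43.4 CPM in Trim71KO (log2 fold change 1.76, SE 0.091, adjusted p = 5.14e-09). Mbnl3 (1.00) rose, Mbnl2 (−0.29) fell, and splicing regulators as a whole gave 6 higher and 2 lower of 27. The microRNA pathway gave 5 higher and 1 lower of 16, or 4 higher and 5 lower with the gene length trend removed: Tnrc6a (0.36) and Tnrc6b (0.37), scaffolds of the silencing complex, rose and Tarbp2 (−0.45) fell, while Ago2 (0.014, adjusted p = 0.895) and Dicer1 (−0.015, adjusted p = 0.868) were not called. Deadenylation and decay genes gave 8 higher and 4 lower of 32, but 4 and 4 of 26 outside chromosome 8, where Cnot1 (0.38), Upf1 (0.28) and Edc4 (0.32) lie. The decay counts also moved with single libraries, to 5, 3, 4 and 3 higher without Trim71KO replicate 1, Trim71KO replicate 2, W replicate 2 and W replicate 3, and to 2 lower without Trim71KO replicate 2, W replicate 2 or W replicate 3. The insulin-like growth factor and oncofetal RNA-binding list gave 7 higher and 5 lower of 17, with Igf2bp3 (0.56) higher, Igf2 (−1.58) lower and Lin28b (0.12, adjusted p = 0.289) not called.

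Polycomb genes gave 8 higher and 6 lower of 27. Suz12, a core subunit of PRC2, read 276, 251 and 236 CPM in W and 382, 399 and 348 CPM in Trim71KO (log2 fold change 0.57, SE 0.072, adjusted p = 4.28e-05), Kdm2b, which brings a PRC1 complex to CpG islands, read 134, 141 and 145 CPM in W and 84.7, 87.3 and 92.5 CPM in Trim71KO (log2 fold change −0.67, SE 0.054, adjusted p = 3.82e-07), and Ezh2 (0.0015, adjusted p = 0.985) was not called. The 8 became 5 without Trim71KO replicate 1, Trim71KO replicate 2 or W replicate 2 and 4 without W replicate 3, and the 6 became 3 without W replicate 2 or W replicate 3. Imprinted genes gave 11 lower and 3 higher of 33. Dlk1 read 2.81, 3.02 and 3.49 CPM in W and 0.678, 0.445 and 0.603 CPM in Trim71KO (log2 fold change −2.42, SE 0.19, adjusted p = 2.98e-07), and H19 (−1.78), Igf2 (−1.58), Peg10 (−1.16) and Grb10 (−0.55) fell. Mest read 33.4, 37.1 and 36.9 CPM in W and 73.97, 75.8 and 76.00 CPM in Trim71KO (log2 fold change 1.07, SE 0.053, adjusted p = 2.90e-09), and Meg3 (0.075, adjusted p = 0.566), expressed from the same cluster as Dlk1 but from the other parental copy, was not called. The count of higher imprinted genes was 7 without Trim71KO replicate 3 and 1 without any of Trim71KO replicate 1, Trim71KO replicate 2, W replicate 2 or W replicate 3.

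**Figure D3:**
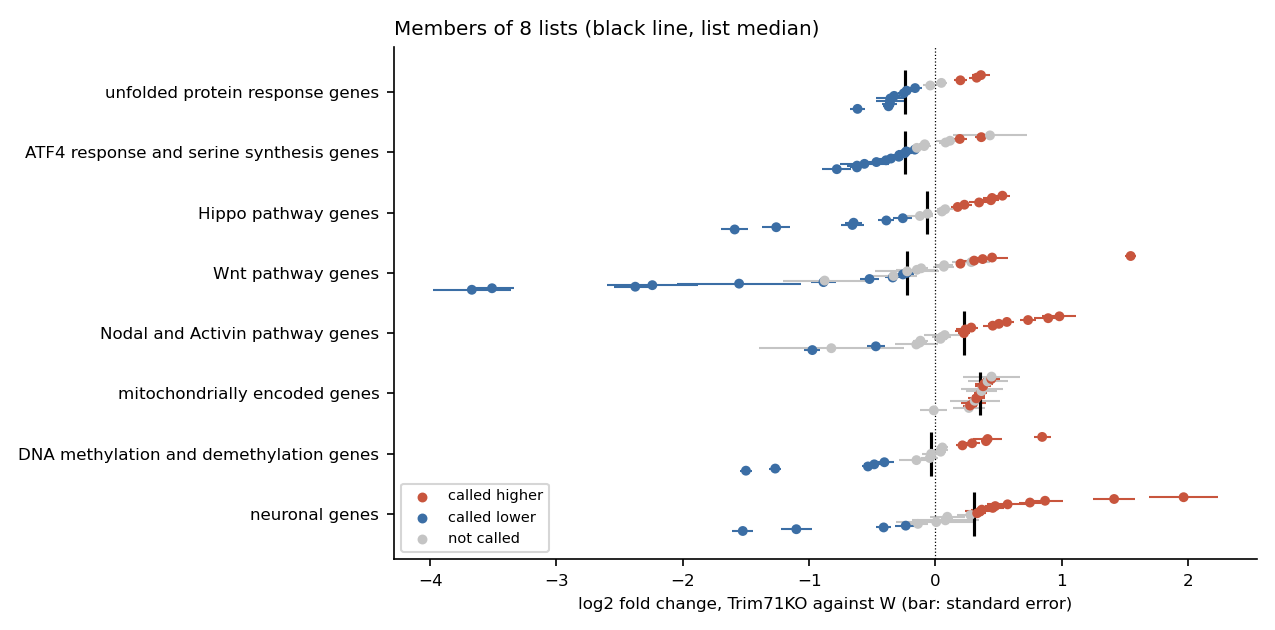
Log2 fold change of each tested member of 8 lists, with a bar for its standard error, coloured by call, a black line at the list median and a dotted line at 0; Ankrd1, with no count in Trim71KO, is not drawn. Unfolded protein response and ATF4 members have medians of −0.24 and mitochondrially encoded genes of 0.36; every list drawn other than the mitochondrial one has called members on both sides of 0.

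By gene class, calls were spread as follows. Of 14601 protein-coding genes, 3179 were higher and 2870 lower. Long non-coding RNAs gave 140 higher and 122 lower of 1360, and pseudogenes 197 higher and 299 lower of 4057. The 606 features of the annotation class TEC, mostly single-exon transcripts that still await experimental proof, were mostly on the higher side: 74.8% had a positive log2 fold change, with a median of 0.28, and 49 were called higher and 8 lower. Of these, 444 lay within or across another gene on the same strand, with a median of 0.33 and 80.9% positive, against 0.12 and 58.0% for the other 162. Reads in such features can come from unspliced RNA of the gene around them; the part of intronic reads in this difference was not tested.

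Chromosome 8 genes were higher as a group in every knockout library. Of 1060 tested, 71.3% had a positive log2 fold change, with a median of 0.195 (1.15-fold), against medians from −0.071 (chromosome 7) to 0.070 (chromosome 12) on the other autosomes and the X. The share of counts on chromosome 8 was 4.67, 4.66 and 4.69% in Trim71KO and 3.89, 3.99 and 3.98% in W, with no overlap (exact two-sided permutation p = 0.1, the smallest that 3 against 3 allow). The median was positive in each of 13 windows of 10 Mb along the chromosome, from 0.10 to 0.33, so it was seen along the whole length. It was 0.23 among the 653 genes whose mean log2 CPM was 2 or more, of which 78.7% were positive, and 0.093 among the 407 below. In Ago2KO libraries against the same W libraries the median was 0.0048. Gain of chromosome 8 is known in cultured mouse embryonic stem cells; DNA copy number was not measured here and was not tested.

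Setting this shift aside changed which genes of chromosome 8 stood out. Against 0, 417 genes were called higher and 62 lower (45.2%, against 31.9% of genes elsewhere). With the shift entered as an offset for genes of this chromosome, 32% of all genes were called (6781), and on chromosome 8 there were 217 higher and 164 lower, or 35.9%. Of the 417, 200 were no longer called, and 102 genes were lower against the shift that had not been lower against 0. Above the shift stood Cpe, a peptide-processing carboxypeptidase, Nkx6-3, a homeobox gene, Calb2, the calcium-binding protein calretinin, Sfrp1 and Snx25. Calb2 read 4.24, 4.51 and 4.41 CPM in W and 12.98, 12.1 and 13.8 CPM in Trim71KO (log2 fold change 1.56, SE 0.086, adjusted p = 8.09e-09). Below it stood Col4a2, Bst2, Col4a1, Cilp2 and Efnb2, the ligand ephrin-B2, which read 9.19, 9.57 and 8.13 CPM in W and 4.24, 5.36 and 4.64 CPM in Trim71KO (log2 fold change −0.92, SE 0.11, adjusted p = 2.39e-05). With the offset, the 8 decay genes called higher became 5, and Upf1 and Edc4 were not called (adjusted p = 0.429 and 0.124).

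**Figure D4:**
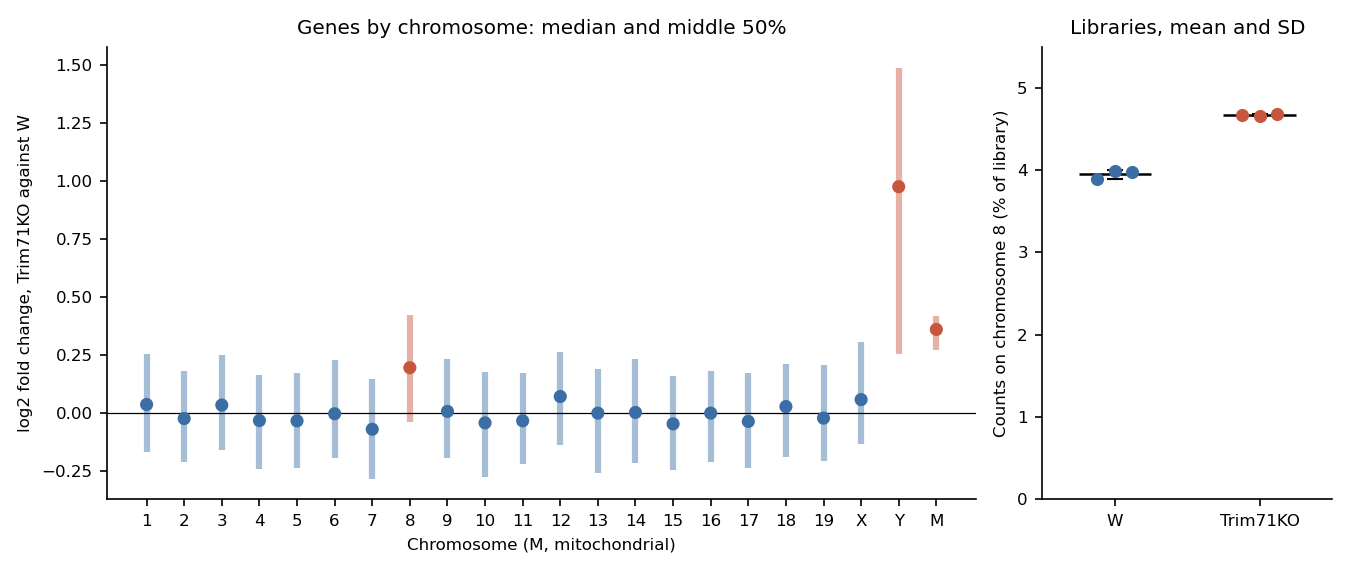
Left, log2 fold change of the tested genes of each chromosome as the median (point) and middle 50% (bar), with chromosomes 8, Y and M in red. Right, percent of each library's counts on chromosome 8, with mean and SD. The median of chromosome 8 is 0.195, and its share is 4.67% ± 0.0125 in Trim71KO and 3.95% ± 0.0554 in W.

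Outside chromosome 8, and among genes whose mean log2 CPM was 2 or more, those with the largest changes belonged partly to the lists above. On the higher side stood the chemokine receptor gene Ccr4 (6.65), which read 0.186, 0.340 and 0.541 CPM in W and 34.8, 36.02 and 36.8 CPM in Trim71KO. It lies downstream of Trim71 on the same strand, with 2216 bases between them (GRCm38, Ccr4 at chr9:114490316-114504916 and Trim71 at chr9:114507133-114564369, both on the minus strand). The same side held the X-linked Tm9sf5 (2.49), Tex13b (2.35) and Scml2, the potassium channel Kcnh3 (2.08), Spats2l (1.95), Tmem108 (1.94), Crtac1 (1.82), the secreted Dkk3 (1.78) and Mbnl1. The lower side held, beside Cubn, Pdgfra, Lrp2, Egr1, Smad6 and Stra8, the membrane glycoprotein podoplanin Pdpn (−2.26), the long non-coding RNA Lncenc1 (−2.03), Glipr2 (−1.90) and Vwa3b (−1.73). Lncenc1, a transcript abundant in naive stem cells, read 62.7, 57.96 and 55.2 CPM in W and 14.1, 15.7 and 13.4 CPM in Trim71KO and so moved against the naive factors. Dkk3 read 3.39, 3.92 and 3.62 CPM in W and 12.2, 12.5 and 12.9 CPM in Trim71KO, again without overlap.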

How the data were processed

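Total RNA was sequenced with a stranded kit, per the labels' protocols, and the deposited table holds raw counts per gene. Per the submitters' processing notes, bcl2fastq 2.17 and STAR 2.7.3a were used, with GRCm38/mm10; whether counting used strand is not given in the sources used here. Of 22512 rows, 22480 matched GENCODE M21, used for chromosomes, classes and overlaps; 45 genes named here overlap a gene on the same strand and 104 on the opposite strand, so their reads may be shared. edgeR 4.0.16 (R 4.3.3) was fitted to the 9 libraries of Experiment 1 (W, Trim71KO and Ago2KO) with TMM normalisation, a minimum count of 10 and the robust quasi-likelihood F test, and genes were called at a Benjamini-Hochberg adjusted p under 0.05. The scripts were tested on simulated data. A second fit entered the chromosome 8 median as an offset. The 51 lists and the named genes were chosen with earlier results of these data known. The first 2 members of a list, and up to 4 called each way with the largest change and a mean log2 CPM of at least 0, could be named by rule, as could the 10 largest changes each way outside chromosome 8 and 5 each way on it; other members were named after their values were seen. Alternatives were other normalisations, filters, tools (DESeq2 1.42.0), offsets, a length correction, a replicate block and leaving out each library. Same-numbered libraries were not treated as pairs. Some results are not reported here.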

Additional observations from a re-analysis of the deposited data

How the results depend on the processing

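The number of genes called stayed between 6384 and 6981 under the alternatives that changed the normalisation, filter, tool, libraries in the fit or offset, against 6906. With a change of at least 1 on the log2 scale required beside the adjusted p, 1108 genes were called (494 higher and 614 lower), and 50 genes of chromosome 8 against its shift. When 1 library was left out, 5313 to 7290 genes were called (2839 to 3678 higher and 2459 to 3612 lower), the median of chromosome 8 genes ranged from 0.1715 to 0.2057, and 286 to 408 of its genes were called against the shift; the lowest median was without Trim71KO replicate 3. Fewer libraries were tested there; why Trim71KO replicate 3 raised the median was not tested. Same-numbered libraries correlated in their deviations at 0.35, −0.20 and 0.61, and 3 of 6 libraries were closest to their own number. A fit with the replicate number as a replicate block called 6886 genes, 3554 higher and 3332 lower, with a chromosome 8 median of 0.1917 and 368 of its genes called against the shift. Nr0b1 and Uty were called higher in that fit. Of the named genes, Calr turned to −0.147 with the chromosome 8 median, or every chromosome's median, as an offset, by the construction of the offset. With the gene length trend removed, Ago2 turned to −0.136 and Dicer1, Dnmt1 and Yap1 were called lower, at −0.187, −0.117 and −0.164; the cause was not tested. The 2-cell-like genes called lower were 8 with a minimum of CPM over 1, where fewer members were tested. Other list counts that moved by more than 1.5 times with all libraries kept were as follows. With the gene length trend removed, the higher counts became 3 for basement membrane, Notch and DNA methylation genes (from 5 each), 4 for insulin-like growth factor genes (from 7), 5 for decay genes (from 8) and 4 for p53 genes (from 2), and the lower count of decay genes became 7 (from 4). With every chromosome's median as an offset, the higher counts became 1 for unfolded protein response genes (from 3), 1 for epithelial genes (from 2), 4 for p53 genes (from 2) and 5 for imprinted genes (from 3). With a minimum of CPM over 1, the higher endothelial and blood genes became 1 (from 4; 2 with DESeq2), the lower respiratory chain genes 5 (from 3) and the 1 lower Hox gene was not tested. Counts of 1 or 2 that moved by 1 are left out.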

Other observations

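Beyond chromosome 8, the highest medians of log2 fold change were those of chromosomes Y and M, both looked at only after the medians of all chromosomes had been seen. Chromosomes 12 and X followed at smaller medians of 0.070 and 0.057, with 58.9% and 58.5% of their genes positive. Of 20 tested genes of chromosome Y, 12 were called higher and none lower, with a median log2 fold change of 0.98. Kdm5d, a histone demethylase gene, read 0.289, 0.149 and 0.229 CPM in W and 3.24, 2.50 and 2.54 CPM in Trim71KO (log2 fold change 3.61, SE 0.23, adjusted p = 3.90e-08). The zinc finger gene Zfy2 had a log2 fold change of 3.68, Uba1y of 1.22 and Usp9y of 1.48. Eif2s3y and Uty were not called (0.20, adjusted p = 0.0664, and 0.26, adjusted p = 0.0547), and Ddx3y was called at 0.43. Both of the uncalled genes were called higher without W replicate 1 or without Trim71KO replicate 3. Chromosome Y took 0.0487% ± 0.00189 of the counts in Trim71KO and 0.0379% ± 0.00181 in W (exact two-sided permutation p = 0.1, the smallest that 3 against 3 libraries allow). In Ago2KO, compared with the same W libraries, the median of chromosome Y genes was 0.42. All 24 tested genes of the mitochondrial genome, tRNA genes included, had a median of 0.36 in Trim71KO and 0.08 in Ago2KO. Among the libraries of Experiment 2, where Trim71KO cells carried an empty plasmid and the controls a mutant T6B peptide, the medians were 0.59 for chromosome Y, 0.60 for the mitochondrial genome and 0.09 for chromosome 8.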
